A study of Mus musculus with 6 samples.

Results

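The accessible chromatin of the 4 mouse Hox clusters was described from ATAC-seq peaks of dermal fibroblasts with and without Lap2alpha. A peak was a member when its summit lay between the first and the last Hox gene of a cluster or within 50 kb of either side. This gave 99 of 106132 peaks in the wild-type (WT) list and 81 of 98072 peaks in the knockout (KO) list. The peaks were placed by cluster and by the paralog number, 1 to 13, of the Hox gene with the nearest start. In all, 97 of the WT peaks and 80 of the KO peaks lay nearest to a Hox gene described here by name, of which there were 38.

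ATAC-seq uses the Tn5 transposase to cut and tag DNA that nucleosomes leave open, so that a peak marks an accessible stretch. Both genotypes, labelled WT and Lap2alpha KO, were cultured mouse dermal fibroblasts grown in DMEM with fetal calf serum, and the label "cell line" names them only as dermal fibroblast. Lap2alpha is the isoform of lamina-associated polypeptide 2 that lies in the nuclear interior and binds A-type lamins there. Each genotype had 3 libraries but a single peak list, and how the libraries were combined, the KO allele, the age of the animals and the number of animals or clones are not given in the sources used here. Peak lists cannot show whether the gene is deleted. With 1 list per genotype there is no replicate error, so the values below carry no test, and the intervals given are exact 95% binomial ones that cover counting error only. Read depth is unknown from these lists.

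Hox genes encode homeodomain transcription factors that give cells their place along the body axis. They sit in clusters in which the order of the genes follows the order in which they act: low paralog numbers act towards the head, and high numbers towards the tail and the tips of the limbs. Fibroblasts of adult skin are known to keep a Hox pattern that depends on the body site they came from.

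The labelled cell type was checked against marker genes. Of 11 dermal fibroblast markers, 10 had a peak within 1 kb in both lists (Col1a1, Col1a2, Col3a1, Pdgfra, Dpt, Dcn, Thy1, Twist2, Fbn1 and Vim), and Lum had none in either. Distance was taken from the gene start, or from either gene end where RefSeq listed no promoter. Either end was used for Col1a1, Dcn, Thy1 and Lum, and for Krt1, Cdh1, Pecam1 and Cdh5 among the markers below. None of 5 keratinocyte markers had a peak in either list. Of the endothelial markers, the cadherin gene Cdh5 had a peak in both lists (percentile 45.0 in WT and 5.97 in KO), while Pecam1 and Kdr had none. Its part in the results was not tested. Signal is given throughout as a percentile within the list a peak comes from, with 100 the strongest.

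The stretches just before the gene starts show what the assay found open and closed. Below are the 250 bases before the RefSeq start (build GRCm38.p6) of 4 of the Hox genes whose promoter lay wholly or nearly under a peak in both lists, and of Hoxa13 and Hoxd13, the terminal genes for the digits, which had none in either. The 4 were chosen because they hold an AGGTCA match, which Hoxa3, Hoxa5 and Hoxd9, wholly under peaks too, do not. Capitals mark matches, on either strand, to the motifs TATAAA (a core promoter element), CCAAT (bound by NF-Y), GGGCGG (bound by Sp1) and AGGTCA (1 repeat of the paired site of nuclear receptors, which include the retinoic acid receptors).
Hoxd10 promoter (chr2:74691641-74691890, plus strand): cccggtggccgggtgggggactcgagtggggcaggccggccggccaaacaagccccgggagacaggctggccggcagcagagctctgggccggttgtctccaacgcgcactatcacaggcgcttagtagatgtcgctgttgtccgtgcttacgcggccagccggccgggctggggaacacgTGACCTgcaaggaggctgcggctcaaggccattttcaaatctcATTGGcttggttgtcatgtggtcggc
Hoxd3 promoter (chr2:74711743-74711992, plus strand): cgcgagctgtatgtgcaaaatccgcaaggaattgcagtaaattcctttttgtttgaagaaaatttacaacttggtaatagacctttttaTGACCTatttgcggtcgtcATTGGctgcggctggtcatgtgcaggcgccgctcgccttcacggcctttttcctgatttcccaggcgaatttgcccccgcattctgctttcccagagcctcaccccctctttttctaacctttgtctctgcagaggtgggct
Hoxd8 promoter (chr2:74704365-74704614, plus strand): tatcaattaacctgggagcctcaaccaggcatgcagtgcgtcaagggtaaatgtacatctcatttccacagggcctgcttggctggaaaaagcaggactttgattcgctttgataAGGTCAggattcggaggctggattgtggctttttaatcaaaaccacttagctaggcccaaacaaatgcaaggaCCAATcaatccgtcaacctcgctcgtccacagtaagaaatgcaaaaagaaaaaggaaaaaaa
Hoxc4 promoter (chr15:103034145-103034394, plus strand): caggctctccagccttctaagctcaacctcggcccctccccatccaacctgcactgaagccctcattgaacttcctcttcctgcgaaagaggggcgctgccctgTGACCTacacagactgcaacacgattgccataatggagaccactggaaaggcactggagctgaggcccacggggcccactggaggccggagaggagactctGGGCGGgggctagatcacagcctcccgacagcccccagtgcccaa
Hoxd13 promoter (chr2:74667975-74668224, plus strand): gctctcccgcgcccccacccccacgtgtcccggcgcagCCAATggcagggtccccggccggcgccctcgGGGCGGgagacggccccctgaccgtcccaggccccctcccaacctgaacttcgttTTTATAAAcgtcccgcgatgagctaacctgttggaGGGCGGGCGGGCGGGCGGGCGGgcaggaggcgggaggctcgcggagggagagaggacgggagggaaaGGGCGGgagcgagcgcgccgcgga
Hoxa13 promoter (chr6:52260881-52261130, minus strand): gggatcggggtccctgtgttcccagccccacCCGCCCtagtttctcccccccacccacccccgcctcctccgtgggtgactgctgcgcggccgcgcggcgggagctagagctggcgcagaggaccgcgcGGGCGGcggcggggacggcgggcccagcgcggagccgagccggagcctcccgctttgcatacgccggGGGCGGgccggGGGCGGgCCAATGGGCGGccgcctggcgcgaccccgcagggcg
The Hoxd10 promoter lay under the strongest of all WT peaks in the windows (percentile 99.5 in WT and 98.0 in KO). The WT summit was 57 bases and the KO summit 59 bases before the start, just 3′ of the AGGTCA match, whose first base is 69 bases before the start. In Hoxd3 the match begins 161 bases before the start, in Hoxd8 135 and in Hoxc4 146.

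Motifs were counted, on both strands, over the 24 listed starts of 22 Hox genes and over 21262 starts of protein-coding genes. AGGTCA was found at 25.0% of the Hox starts against 12.8% of all starts. It stood at 5 of the 10 Hox starts with a peak within 1 kb in both lists (Hoxb4, Hoxc4, Hoxd3, Hoxd8 and Hoxd10) and at 1 of the 14 with no such peak in either (Hoxd4). CCAAT was found at 58.3% of Hox starts against 35.4%, and its order was the other way: 4 of 10 open and 10 of 14 closed starts. TATAAA was found at 16.7% against 11.6%, GGGCGG at 41.7% against 42.6%, and CANNTG (an E-box) at 70.8% against 62.8%. Homeodomain and cofactor sites were few in this window: TAATTA at 8.33% against 4.30%, and TGATTNAT, a paired Hox and Pbx site, at 8.33% against 2.52%. Each was found at 2 of the 24 Hox starts, all of them closed. These counts are too few to set apart from the higher or lower share of all starts. TGANTCA (AP-1) was at 4.17% against 6.13%, GGNGGCAG (the core of a CTCF site) at 4.17% against 10.4%, and TGACGTCA at 0 of 24 against 1.92%. GGGCGG matches overlap each other in Hoxd13. The Hox promoters held more CpG dinucleotides for their base content than promoters at large, with a median observed over expected ratio of 0.721 against 0.530. The median was 0.589 at the open and 0.776 at the closed Hox starts. A match describes letters only.

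Taken as a whole, the 4 clusters were denser in open chromatin than the DNA around them in both genotypes. Inside the clusters, 492.1 kb in all, there were 16.5 WT peaks and 14.0 KO peaks per 100 kb, against 8.05 and 8.07 in the DNA reaching 1 Mb further on each side of the windows. Peaks covered 14.9% of the clusters in WT and 13.7% in KO, against 5.99% and 6.08% of the neighbouring DNA. The clusters did not share this alike: in the KO list Hoxb held 12.1 peaks per 100 kb and 8.10% covered DNA, against 11.4 and 7.97% in its own neighbouring DNA. The neighbouring DNA of Hoxa and Hoxd was itself sparse, at 4.60 and 4.80 WT peaks per 100 kb. The peaks of all windows together were also wide, with a median width of 612 bp in WT and 660 bp in KO in the windows, against 442 and 469 bp over the whole lists. Peaks over 1 kb made up 28.3% and 32.1%, against 20.3% and 21.2%. The windows differed: the Hoxc and Hoxd medians were 781 and 766.5 bp in WT and 799.5 and 731 bp in KO. The Hoxa median was 401 bp in WT and 838.5 bp in KO, and the Hoxb median 543 and 445.5 bp. Of the WT peaks 15, and of the KO peaks 12, were above percentile 90 of their list. The flanks outside the clusters held only 18 WT and 12 KO peaks.

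**Figure D1:**
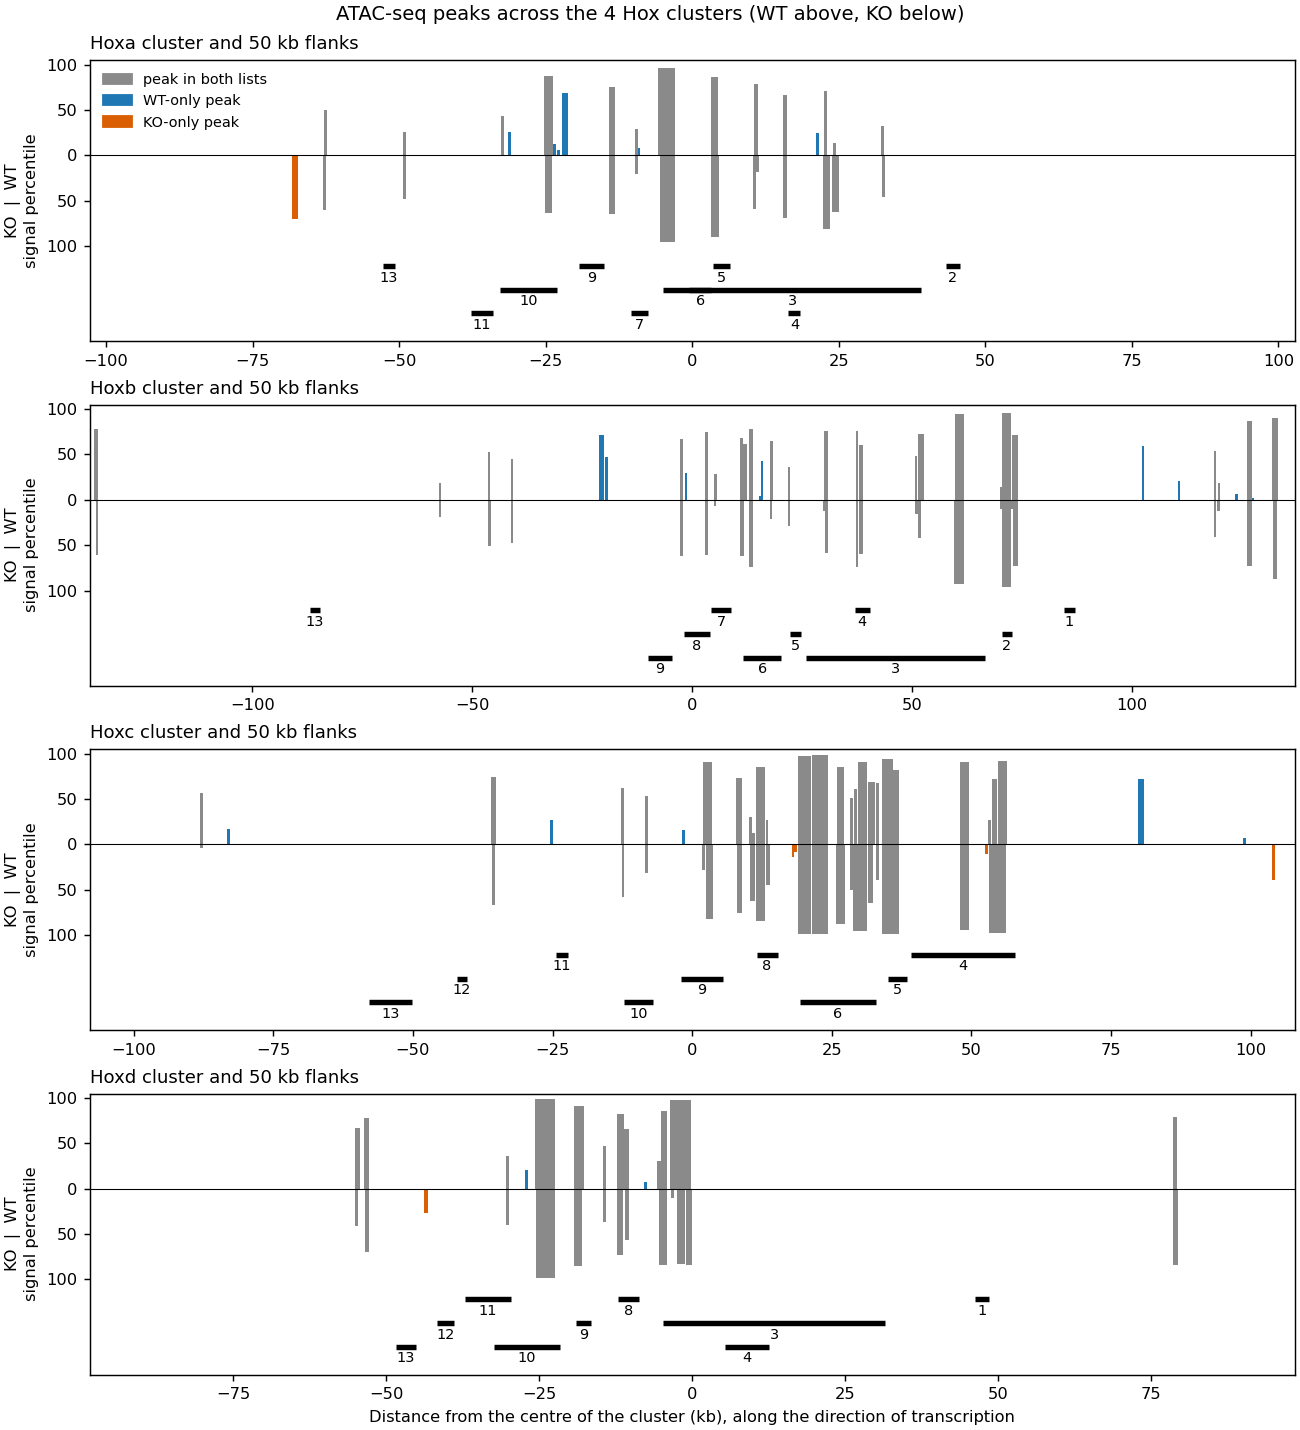
Peaks of the WT list (upward bars) and the KO list (downward bars) in the 4 Hox windows; the y axis is the signal percentile within each list, the x axis the distance in kb from the cluster centre along the direction of transcription, narrow peaks are drawn wider to be visible, and black lines are the named Hox genes with their paralog numbers. Drawn are the 97 WT and 80 KO peaks nearest to a named gene; grey bars overlap a peak of the other list, and in Hoxc tall, wide bars run together from the central genes to Hoxc4.

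Fewer peaks were listed in KO than in WT. The KO list had 81.8% as many peaks in the windows as the WT list (interval 60.2 to 111%), against 92.4% over the whole lists and 100.3% (89.8 to 112%) in the neighbouring DNA, where 644 WT and 646 KO peaks were listed. The windows' interval covers all of these. WT-only peaks, which no KO peak overlaps by even 1 bp, numbered 23 of 99, or 23.2% (15.3 to 32.8%), beside 20.4% of all WT peaks. KO-only peaks numbered 7 of 81, or 8.64% (3.55 to 17.0%), beside 13.4% of all KO peaks. Both intervals cover the shares of the whole lists. In the neighbouring DNA 13.4% of WT peaks were WT-only (10.8 to 16.2%), a share below the windows' interval, and 13.9% of KO peaks were KO-only (11.4 to 16.8%). Of the 18 WT flank peaks 8 were WT-only (44.4%), and of the 81 peaks inside the clusters 15 were (18.5%).

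The counts of the 4 windows differed, but their intervals overlapped widely. KO peaks as a share of WT peaks had an interval of 37.2 to 153% in Hoxa and 44.1 to 131% in Hoxb. In Hoxc it was 44.8 to 142% and in Hoxd 48.2 to 240%. The interval of the WT-only share covered the 20.4% of all WT peaks in each window. The counts below therefore describe the lists and do not set the clusters apart. In the Hoxb window (chr11:96144316-96418254) 34 WT peaks stood against 26 KO peaks, 9 of them WT-only. No KO peak there was KO-only, which allows a share of up to 11.5% by the limit of 3 counts and 13.2% by the exact interval. The share was 11.8% of all KO peaks on that chromosome. Over the whole KO list it was 13.4%, just above the exact interval. Neighbouring peaks are not independent and this was 1 of 4 windows, so the difference was not tested. DNA under Hoxb peaks was 23.8 kb in WT and 17.2 kb in KO, 72.4% as much. In the Hoxa window (chr6:52105367-52310880) 21 WT peaks stood against 16, with 6 WT-only and 1 KO-only, yet the covered DNA was 15.7 kb in WT and 16.5 kb in KO. KO peaks there were 76.2% of WT peaks in number, but 110% when only peaks above the median signal of their list were counted. The DNA beside Hoxa ran the other way in number, with 92 WT and 110 KO peaks, of which 9.78% and 26.4% were found in 1 list alone. In the Hoxc window (chr15:102871131-103086856) 30 WT peaks stood against 24, with 6 WT-only and 4 KO-only, and the cluster was the most widely open of the 4: peaks covered 23.1% of it in WT and 23.3% in KO. In the Hoxd window (chr2:74618225-74815142) 14 WT and 15 KO peaks were listed, with 2 found in a single list on each side.

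**Figure D2:**
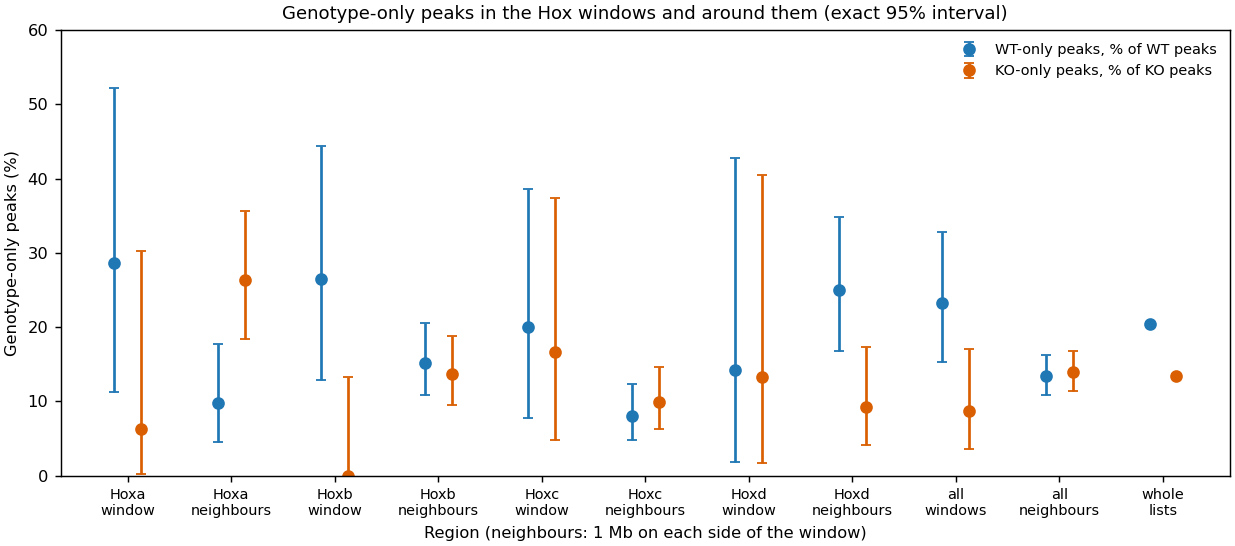
Share of peaks that overlap no peak of the other list (y axis, %) in each Hox window, in 1 Mb on each side of it, and in the whole lists, for WT (blue) and KO (orange); bars are exact 95% intervals. The intervals of the windows are wide, and those of all windows together cover the whole-list shares of 20.4% and 13.4%.

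At the gene starts, the clusters were open or closed mostly alike in both lists. A start was called open when a peak lay within 1 kb of it. Each list had a peak at 19 of the 38 Hox starts, the WT list alone had one at 2 (5.26%), the KO list alone at 0, and 17 starts were closed. Over 17491 protein-coding genes 55% were open in each list, 1.82% in the WT list alone, 0.823% in the KO list alone, and 42.4% were closed. Counts of 2 and 0 among 38 are too few to set apart from these shares. The shares over all genes rest on RefSeq promoter starts only. Of the 22 Hox genes with such a start, 10 (45.45%) were open in both lists and 12 (54.55%) were closed. Open in the WT list alone were 0 of these, and in the KO list alone 0. The starts open in WT only, Hoxc9 and Hoxc11, both came from gene spans. The open Hox starts ranked below open starts at large: their median was at percentile 82.2 (WT) and 84.5 (KO), compared with 91.6 and 90.3 for all genes. Like the latter, 22 of the Hox genes have RefSeq promoter starts, and for these alone the medians were 88.7 and 85.1. Starts of 22 genes came from RefSeq promoters and of 16 from the end of the gene span, which can be the start of a longer transcript.

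**Figure D3:**
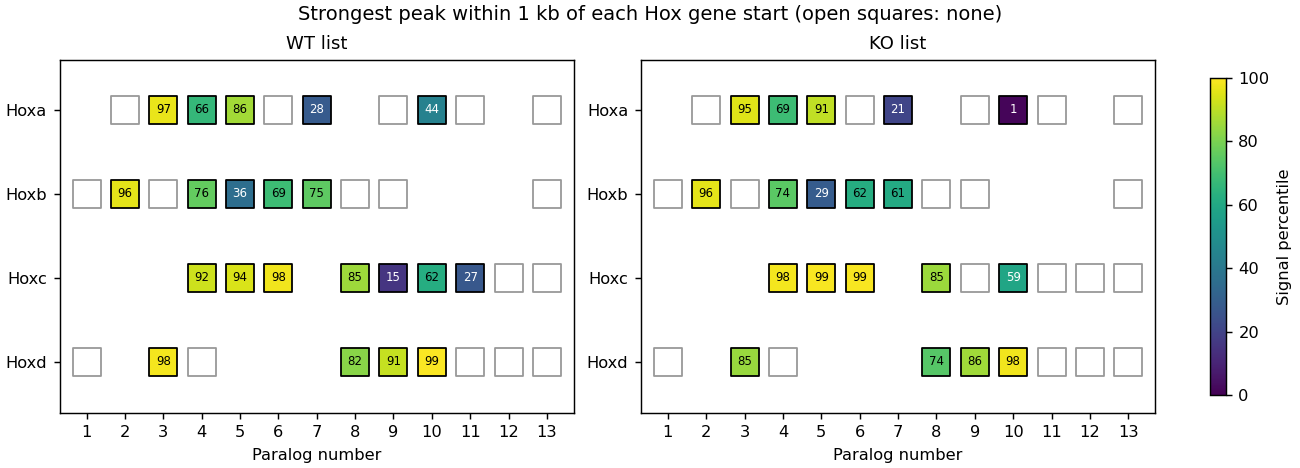
Signal percentile (colour and printed value) of the strongest peak within 1 kb of the start of each of 38 Hox genes, by cluster (rows) and paralog number (x axis), in the WT list (left) and the KO list (right); white squares are genes with no such peak. The 9 central genes open in both lists and the bare columns 1, 12 and 13 stand out, and Hoxc9 and Hoxc11 are filled in the WT list alone.

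Anterior genes, paralogs 1 to 4, were open in both lists at 6 of 11 starts. Hoxa3, needed for the thymus and parathyroid, stood at percentile 96.5 in WT and 95.3 in KO. Its start used here lies between Hoxa6 and Hoxa7, at the far end of a gene span that also holds Hoxa4, Hoxa5 and Hoxa6. The Hoxa3 start peak thus lies among central genes. Hoxb2, a hindbrain gene, stood at 96.0 in both. Hoxd3, which with Hoxa3 shapes the first neck vertebrae, stood at 98.4 and 84.5. The WT value is that of a peak of 3546 bp (chr2:74712975-74716520), where the KO list had 3 peaks that cover 2890 bp, and the KO value is that of a peak of 1416 bp over the start itself. The WT peak over the start stood at 85.8, so the peaks that face each other there were close in rank. Hoxc4 stood at 92.4 and 98.3, and there the split ran the other way, with 3 WT peaks against 1 KO peak of 3005 bp (chr15:103032098-103035102). Hoxb4 stood at 75.9 and 74.5, and Hoxa4 at 66.4 and 68.7. Hoxb1, which sets the identity of a hindbrain segment, was closed in both lists, as were Hoxa2, Hoxb3, Hoxd1 and Hoxd4. The Hoxb3 start used here is the end of a gene span that also holds Hoxb4. Inside that span lay 6 WT and 7 KO summits, so the closed call covers the start alone. The strongest peak there stood at 94.9 in WT and 93.4 in KO (chr11:96341046-96342983 in WT). The nearest peak to the Hoxd1 start was 32292 bp away in WT and 32304 bp in KO.

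Central genes, paralogs 5 to 8, which act in the neck and trunk, were open in both lists at 9 of 11 starts, and only Hoxa6 and Hoxb8 were closed. Hoxc6 and Hoxc5 ranked highest in this group. Hoxc6, a thoracic gene, stood at 97.9 in WT and 98.9 in KO, with a second peak inside the gene at 98.3 and 99.2. Hoxc5 stood at 94.2 and 98.8 and Hoxc8 at 85.3 and 85.1. Hoxa5, needed for lung and upper trunk, stood at 86.2 and 90.6. Hoxd8 stood at 82.2 and 73.5. The Hoxb genes of the group ranked lower in KO at each start: Hoxb7 stood at 75.2 and 60.8, Hoxb6 at 68.5 and 61.8 and Hoxb5 at 35.9 and 28.8. Hoxa7 was weakest, at 28.5 and 20.7.

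Posterior genes, paralogs 9 to 13, were open in both lists at 4 of 16 starts. Hoxd10, which acts in the lumbar spine and hindlimb, was the strongest, and Hoxd9 beside it stood at 91.2 in WT and 85.7 in KO. Hoxc10, another lumbar gene, stood at 61.9 and 58.6. Hoxa10, which acts in the uterus and lumbar spine, stood at 43.7 and 1.22, where a WT peak of 401 bp faced a KO peak of 153 bp. Hoxc9, a thoracic gene, was open in WT only, by a weak peak (15.4) 464 bp into the gene, but a stronger peak further in was found in both lists (91.1 and 82.4). Hoxc11 was open in WT only by a peak of 218 bp at percentile 27.0 before its start. Every start of paralogs 12 and 13 was closed in both lists: Hoxc12, Hoxd12, Hoxa13, Hoxb13, Hoxc13 and Hoxd13. These include Hoxc13, which acts in hair and nails, and Hoxb13, which acts in the prostate and tail. Hoxa11 and Hoxd11, which shape the forearm, were closed too.

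Inside the clusters, the WT-only peaks lay more among the posterior genes. They numbered 9 of 22 WT peaks nearest a posterior gene, or 40.9% (20.7 to 63.7%), against 2 of 24 anterior (8.33%, 1.03 to 27.0%) and 4 of 33 central ones (12.1%, 3.40 to 28.2%). The posterior interval begins just above the 20.4% of the whole list, neighbouring peaks are not independent, and the grouping was compared with results in view, so the difference carries no test. KO-only peaks numbered 2 of 26, 2 of 27 and 1 of 15. DNA under peaks of posterior genes was 15.9 kb in WT and 10.5 kb in KO, 65.9% as much, while that of anterior genes was 25.1 and 25.4 kb and that of central genes 29.2 and 28.0 kb. The anterior figures include the Hoxa3 start peak (2855 bp in WT and 2540 bp in KO), which lies among central genes. Paralog 9 held most of the posterior gap, with 5 of 9 WT peaks WT-only and 7.60 kb covered in WT against 3.48 kb in KO. When a shared peak had to overlap by 50% both ways, the WT-only share became 50% for anterior, 30.3% for central and 50% for posterior genes, so the contrast depends on the overlap rule.

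**Figure D4:**
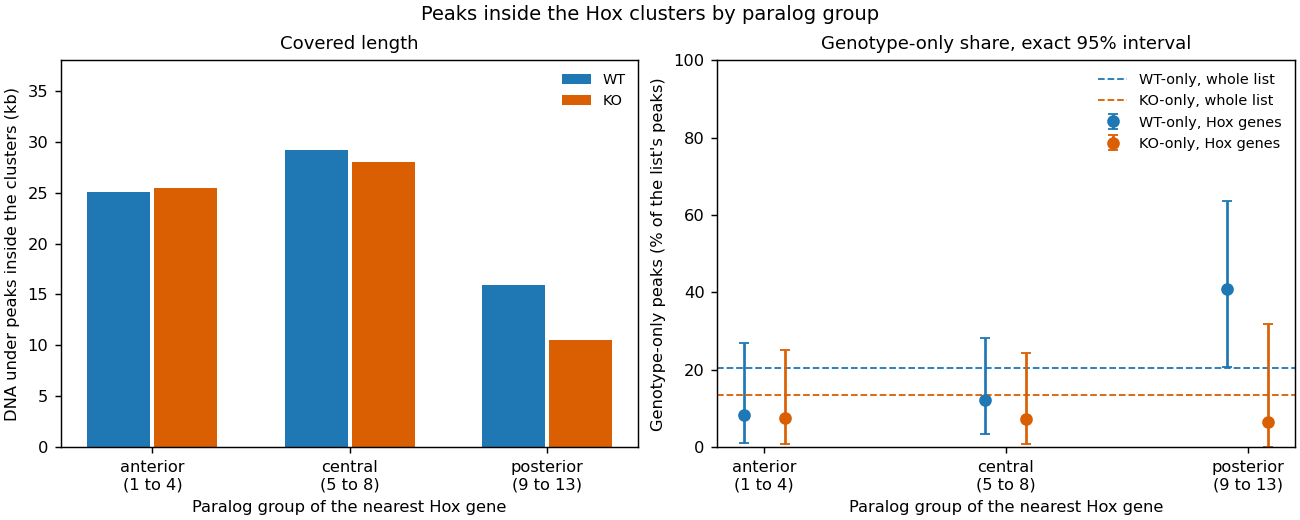
Left, DNA under peaks inside the 4 clusters (kb) for WT (blue) and KO (orange), by paralog group of the nearest Hox gene; right, share of genotype-only peaks (%) with exact 95% intervals, and dashed lines at the whole-list shares. Posterior genes show 15.9 kb in WT against 10.5 kb in KO, and a WT-only share of 40.9%.

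The 9 posterior WT-only peaks fell at few places: 4 between the starts of Hoxa9 and Hoxa10, 2 upstream of Hoxb9, 1 each at Hoxc9 and Hoxc11, and 1 before Hoxd10. Upstream of Hoxa9, the WT list had peaks at chr6:52229320-52230338 (percentile 69.2) and chr6:52230757-52231088 (6.38), and the KO list had none nearest to that gene. The first lies in the lncRNA Gm52902 and covers Mir196b, a microRNA gene within the cluster. Next to it in Hoxa10, a WT peak at 86.9 and a KO peak at 63.3 were shared (chr6:52231902-52233323 in WT). Upstream of Hoxb9, the peaks chr11:96260201-96261140 (71.1) and chr11:96261494-96262041 (46.9) lie in the lncRNA Gm53, and no KO peak was within 1 kb of either. They stand beside Mir196a-1: its nearest peak was 3123 bp away in WT and 13251 bp in KO.

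The Hox clusters carry microRNA genes whose products are known to target Hox transcripts. The mature sequences are shown with the seed, bases 2 to 8, in capitals, because the seed decides the targets and shows which loci share a family.
mmu-miR-196a-5p: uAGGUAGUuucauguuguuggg
mmu-miR-196b-5p: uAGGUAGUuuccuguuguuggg
mmu-miR-10a-5p: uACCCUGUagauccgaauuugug
mmu-miR-10b-5p: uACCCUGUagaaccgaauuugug
mmu-miR-615-3p: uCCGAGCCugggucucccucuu
The miR-196 products share the seed AGGUAGU and come from Hoxa (Mir196b), Hoxb (Mir196a-1) and Hoxc (Mir196a-2). The loci of this family differed between the lists in Hoxa and Hoxb, as above, but not in Hoxc, where the nearest peak was 2332 bp away in WT and 2328 bp in KO. The miR-10 products share the seed ACCCUGU. The nearest peak to Mir10a in Hoxb was 1246 bp away in WT and 1258 bp in KO, and to Mir10b in Hoxd 9550 and 9408 bp. Mir615, in Hoxc5, lay 21 bp from a WT peak and under a KO peak. Widening the distance to 2 kb puts Mir196b near a peak of both lists, since the KO peak at Hoxa10 is 1793 bp away.

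For each genotype, the strongest peak found in its list alone lay in a flank. In WT it was chr15:103058748-103059957 (percentile 71.8), beyond Hoxc4 in the lncRNA Gm30528. The others above percentile 50 were the stronger of the Gm53 peaks, the peak over Mir196b and a peak of the Hoxb flank beyond Hoxb1 (chr11:96383523-96384120, 59.8). In KO it was chr6:52275327-52276369 (69.9), upstream of Hoxa13, followed by chr15:103082730-103083389 (39.6) in the Hoxc flank and chr2:74673078-74673277 (27.1), whose nearer end is 1736 bp from the Hoxd12 start. The remaining 4 KO-only peaks, 2 at Hoxc6 and 1 each at Hoxc4 and Hoxd3, were at percentile 14.5 or lower and had a WT peak within 1 kb. Single-list peaks were weak here as elsewhere: their median percentile was 20.5 in WT and 14.5 in KO, beside 17.8 and 16.5 over the whole lists.

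Among the shared peaks, 56 formed pairs of 1 WT and 1 KO peak, 7 groups had several WT peaks facing 1 KO peak, and 5 had the reverse. In the pairs the summits were a median of 14.5 bp apart, and 75% were within 50 bp, against 79.6% of pairs over the whole lists. In Hoxc 7 of 14 pairs were within that distance. The KO percentile was lower than the WT percentile in 39 of 56 pairs (69.6%, against 59.3% of all pairs), with a median difference of -3.39 points. The Hoxb window had the largest number of these, 19 of 21 pairs lower in KO. In Hoxa 5 of 12 were lower, in Hoxc 8 of 14 and in Hoxd 7 of 9. The KO peak was narrower in 37 of 56 pairs (66.07%, against 52.45% of all pairs). Median widths in WT and KO were 703 and 475 bp in Hoxb, 978 and 799.5 bp in Hoxc and 804 and 731 bp in Hoxd. In Hoxa the order was the other way, 437 bp in WT and 838.5 bp in KO. Over the whole lists the medians were 541 and 525 bp. Percentiles rank peaks within a list, and do not measure a change in accessibility.

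Hox proteins bind DNA with TALE homeodomain cofactors, and all 11 of those tested, Meis1, Meis2 and Pknox2 among them, had a gene start peak in both lists. Tgif1, a repressor of retinoid and TGF-beta targets, stood at percentile 99.96 in WT and 99.97 in KO, and Pknox1 at 98.9 in both. Here and in the other lists of positional genes, either end of the gene counted where RefSeq listed no promoter. The share of all starts is therefore not a like measure. By RefSeq starts alone, 55% of protein-coding genes were open in both lists, 1.82% in WT alone and 0.823% in KO alone. A departure of the positional lists from these shares was not tested. Beyond the genes open in 1 list and the strongest of each list, those named were chosen after their values were seen.

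Genes of limb and trunk position were open in each list at 12 of 31 members, in the WT list alone at 3, in the KO list alone at 0, and closed at 16. Irx5 stood at 99.95 and 99.85, Tbx3 at 99.5 and 99.9, and Tbx18 at 99.4 and 99.2. Emx2, a shoulder blade gene, stood at 97.7 and 93.4, and En1, the gene of ventral limb skin and a lineage of trunk dermis, at 96.4 and 75.9. Tbx5 and Tbx4, which start the forelimb and the hindlimb, had no start peak in either list, nor did Pitx1, a hindlimb gene, or Shh. Tbx2 (98.2), Pax9 (58.5) and Foxf2 (39.6) had one in WT only, and Tbx2 had one in both lists within 2 kb. In the face and skull list 4 of 10 were open in both, Dlx1, Dlx2 and Otx1 among them, and the other 6 in neither. Otx1 stood at 96.2 in WT and 95.7 in KO.

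Genes that act on the Hox clusters were open in both lists at 19 of 27 members and in neither at 8. The retinoic acid receptors Rara (98.7 and 98.7) and Rarg (98.7 and 99.4) were among the strongest, and Kdm6a, which removes the Polycomb mark, stood at 99.8 and 99.6. The Polycomb genes Ezh2, Eed, Suz12, Bmi1, Ring1 and Rnf2 were all open in both, as were Kmt2a and Men1 of the opposing Trithorax complex. Bmi1 stood at 48.0 in WT and 79.9 in KO. Closed in both were the retinoic acid enzymes Aldh1a2, Aldh1a3, Cyp26a1, Cyp26b1 and Cyp26c1, and also Cdx1, Cdx2 and Cdx4. Within 2 kb, Aldh1a3 and Cdx1 had a peak in both lists. Of 22 members listed as genes beside the clusters or RNAs within them, 12 were open in both lists, 1 in WT only (Mir196b) and 9 in neither. Hotair, the lncRNA of the posterior Hoxc cluster, stood at 74.7 and 66.8, while Hottip, that of the Hoxa tip, and Evx1 and Evx2, the homeobox genes next to the posterior ends of Hoxa and Hoxd, were closed in both.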

How the data were processed

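Nuclei were tagmented with Tn5, and sequencing used a NextSeq machine, per the labels. Bowtie2 2.5.1, Genrich, deepTools 3.5.1 and build GRCm38 are named in the submitters' processing notes. The sources used here give neither the settings nor any Tn5 shift. The authors deposited 1 peak list per genotype, with a score, a signal and a −log10 p for each peak. In both deposited lists the score equals 1000 times the signal over the peak length, held to a ceiling of 1000, so at equal score a wider peak has more signal. No column of sample values was left unmapped (0). These values are the authors' own, and the signal was used only as a percentile within its list.

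From these lists, overlaps (at least 1 bp), counts, covered lengths and exact (Clopper-Pearson) 95% intervals were computed in Python 3.11.15 with pandas 2.3.3 and scipy 1.17.1. The overlap code was tested on simulated lists against bedtools 2.31.1. Gene starts, promoters and microRNAs came from RefSeq (GRCm38.p6); of 38 Hox genes 22 had a listed promoter. One of the 39 Hox genes in the annotation, and some genes of the other lists, are not reported here. Named were all other Hox genes, some of the single-list peaks (up to 10 per genotype), some of the strongest peaks per cluster, and set members of the positional lists. The members and lists were chosen with earlier results of these data known. Alternatives changed the overlap rule, thresholds, list length, flank, start distance and gene assignment.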

Additional observations from a re-analysis of the deposited data

How the results depend on the processing

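With 1 combined list per genotype no library could be left out, and depth is unknown. No paired analysis was possible because the numbered libraries of each genotype were merged into a single list. The shared peaks were 76.8% of WT and 91.4% of KO peaks in the windows. They became 55.6% and 67.9% when the overlap had to reach 50% both ways (66.4% and 71.9% over the whole lists), and 85.7% of WT peaks with lists of equal length. Hox starts open in WT only went from 2 to 1 within 500 bp, 4 within 2 kb and 0 in the upper 50% by signal. Those open in KO only went from 0 to 1 within 2 kb. Positional genes open in WT only went from 4 to 2 within 2 kb, and those in KO only from 0 to 2 in the upper 50%. KO peaks as a share of WT peaks ranged from 78.6 to 91.4% over the alternatives. Chosen after seeing the data, the posterior WT-only share ranged from 28.6 to 50%. Peak numbers in the Hoxa window became 110% and 100% of WT in the upper 50% and with equal lists, against 76.2%.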
